A study of Mus musculus with 21 samples.

Results

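A set of 8 genes that carry the output of the circadian clock, or tune it, was followed in mouse heart: Dbp, Tef, Hlf, Nfil3, Bhlhe40, Bhlhe41, Rora and Ciart. They were chosen by gene name, with earlier results of these data known, and all of them were found among the 19096 genes of the deposited matrix. All 8 also passed the filter on low counts, with between 139 estimated reads (Nfil3) and 5556 estimated reads (Tef) in a library. In the circadian clock, CLOCK and BMAL1 (encoded by Arntl) switch on genes that hold an E-box. DBP, TEF and HLF are activators that bind D-boxes in rhythmic genes, and NFIL3 represses from the same D-boxes. BHLHE40 and BHLHE41 (DEC1 and DEC2) and CIART (CHRONO) repress the action of CLOCK and BMAL1, while RORA activates Arntl and other genes through the ROR element. In the heart, genes under the clock include those of ion channels and of fuel use.

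The animals were male C57BL/6NJ mice, aged 8 to 10 weeks at the start, and ate chow or a high-fat diet (60% of the energy as fat) for 10 weeks. They also received an adeno-associated virus (AAV) that carries renin, or a null vector, by injection behind the eye, and hearts were frozen 6 weeks after injection. The sample labels call the null vector animals novirus, while the series text speaks of a null vector. The 4 groups were chow with null vector (n = 4), chow with renin (n = 6), high-fat diet with null vector (n = 6) and high-fat diet with renin (n = 5), 1 library per heart. The high-fat renin group models HFpEF, a heart failure in which the ejection fraction is preserved and filling is impaired, and the question was what each hit and both together changed. The labels give neither the promoter that drives renin, nor the species of the renin gene, nor the hour of collection. Since the level of these genes depends on the hour, the part of the hour in any difference below was not tested.

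Estimated reads per library ranged from 18.7 to 29.3 M (1 M is 1000000 reads), and all 4 chow null libraries (at most 21.4 M) were below all others (at least 22.8 M), so depth and group cannot be told apart in the comparisons with chow null. Ren1, the renin gene of the mouse, had reads in 4 of 21 libraries and at most 5 in any, so the heart counts did not show which animals had received renin. Of the labelled tissue, 6 of 6 cardiomyocyte markers were measured, and their summed level was 49716 to 60656 CPM (counts per 1000000 reads) in chow null, 46015 to 48294 in chow renin, 46519 to 54905 in high-fat null and 40105 to 47106 in high-fat renin. Markers of central neurons (8 of 8 tested) summed to 278 to 430 CPM in chow renin and to 103 to 173 in the other groups, and those of oligodendrocytes and astrocytes (5 of 5 each) were likewise higher there, with no overlap. In bulk heart RNA, fewer cells of a type and less RNA per cell cannot be told apart.

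The sequences before the RefSeq start sites are shown because a match to a clock motif is what a reader would look for first in these genes. RefSeq promoters (GRCm38.p6, 250 bases before to 50 after a start site) were listed for 7 of the 8 members, with 2 start sites for Tef. Bhlhe40 was not in the table. A script searched both strands for the E-box CACGTG, the variant CACGTT, the D-box TTANGTAA, the ROR element core TNGGTCA and the cyclic AMP element TGACGTCA. The matches found did not overlap one another. Each sequence below is written 5′ to 3′ on the strand of its gene with the match in capitals.
Ciart, chr3:95882257-95882354, minus strand: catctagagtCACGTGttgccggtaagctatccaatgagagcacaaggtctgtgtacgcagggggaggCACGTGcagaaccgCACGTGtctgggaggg
Tef, first start site, chr15:81802536-81802561, plus strand: gctgtggctcCACGTGctgcagctgg
Tef, second start site, chr15:81811266-81811291, plus strand: cctggcccagCACGTGtctacatcgt
Bhlhe41, chr6:145865558-145865583, minus strand: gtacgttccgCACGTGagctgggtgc
Hlf, chr11:90390918-90390936, minus strand: gtgcgggcccTGACGTCAc
Nfil3, chr13:52981040-52981061, minus strand: cgctcggaacTGACCTActaac
Ciart held 3 E-boxes, which lay 116, 58 and 44 bases before its start site. Over all 32817 promoters of the table, 7.15% held an E-box and 29 promoters (0.0884%) held 3 or more. Tef had an E-box 127 bases before one start site and 138 bases before the other, and Bhlhe41 had one at 153 bases. Hlf held a cyclic AMP element 9 bases before its start site (1.79% of promoters hold one). Nfil3 held a ROR element core at 12 bases, and Tef a further one upstream of the E-box at its other start site (10.97% of promoters). In the GENCODE annotation used for the counts, the E-box at the first Tef start site and the Nfil3 match lie inside an exon, since Tef-202 and Nfil3-201 begin further upstream there. The D-box was in 2.32% and the variant E-box in 4.69% of promoters, and neither was found in the windows of these genes. No match of the 5 motifs was found in the windows of Dbp and Rora. A match is a description of letters, and no binding was measured here.

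**Figure D1:**
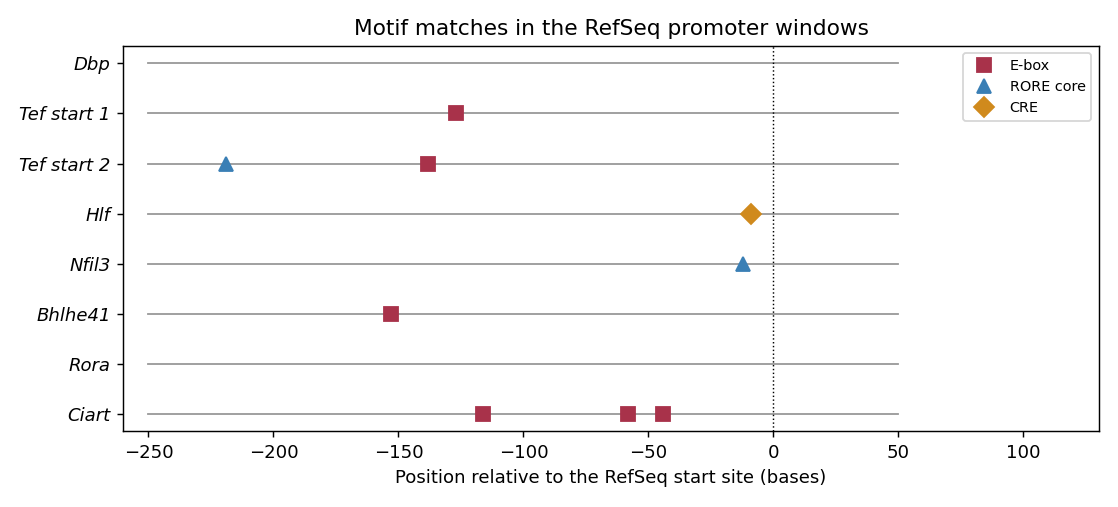
Matches to clock motifs in the RefSeq promoter windows of 7 members, drawn to scale by distance from the start site in bases (dotted line at 0). Each grey line is 1 window of 250 bases before to 50 after the start. Ciart has 3 E-boxes, Tef 1 at each of its 2 start sites, and Dbp and Rora have no symbol.

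Levels per transcript length (TPM, transcripts per 1000000 transcripts, mean ± SD over 21 libraries) put Dbp first, at 63.9 ± 11.4, and Tef second, at 49.0 ± 5.84. Bhlhe40 followed at 17.7 ± 3.45 TPM and Ciart at 13.1 ± 4.27. Bhlhe41 had 7.42 ± 1.07 TPM, Hlf 5.70 ± 1.24, Nfil3 3.66 ± 0.893 and Rora 2.70 ± 0.237. The ranges of neighbours in this order overlapped, except between Tef, whose lowest library had 39.0 TPM, and Bhlhe40, whose highest had 23.9. Rora varied least between hearts of a group, with a within-group SD of 0.07 on the log2 CPM scale, lower than that of all but 2.54% of genes tested. The within-group SD of Nfil3 was 0.29, that of Ciart 0.28 and that of Hlf 0.28. Ciart covered the widest range, and its highest library stood 3.23-fold above its lowest.

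Hearts with both hits had less Ciart, Dbp and Tef RNA than hearts with neither. Ciart, the repressor CHRONO, measured 24.6, 19.9, 16.2 and 28.3 CPM in the 4 chow null libraries and 14.2, 8.70, 12.2, 10.2 and 10.0 CPM in the 5 high-fat renin libraries. The groups did not overlap, and Ciart fell by 50.4% (log2 fold change -1.01, SE 0.17, edgeR adjusted p = 0.00152). Dbp, the most abundant of the D-box activators, measured 145, 131, 139 and 158 CPM in chow null against 73.8, 85.4, 117, 130 and 89.7 CPM in high-fat renin. Its groups also did not overlap, though the highest high-fat renin library (130.1) was close to the lowest chow null library (130.8), and Dbp fell by 30.8% (log2 fold change -0.53, SE 0.14, edgeR adjusted p = 0.0195). Tef, of the same D-box family, measured 206, 194, 179.6 and 201 CPM in chow null and 140.999, 156, 186, 166 and 151 CPM in high-fat renin. All but 1 of the high-fat renin libraries lay below chow null, and Tef fell by 18.0% (log2 fold change -0.29, SE 0.08, edgeR adjusted p = 0.025). Hlf, the remaining D-box activator, had 42.6, 39.0, 32.8 and 41.5 CPM in chow null and 18.0, 25.5, 34.7, 35.4 and 19.4 CPM in high-fat renin. Here 3 of 5 libraries lay below chow null, and the difference in Hlf was just outside the threshold (log2 fold change -0.55, SE 0.17, edgeR adjusted p = 0.0508).

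In all, 3 of 8 members were lower and 0 higher with both hits, where 8.29% of the 15216 genes tested passed in either direction and 4.25% were lower. The median log2 fold change was -0.20 over the members and 0.01 over all genes tested. The share of all genes called fell to between 3.67% and 5.23% without any one of high-fat renin replicates 1, 2 and 5 and chow null replicates 1, 2 and 4. The Ciart call held in each of the 9 fits that left out 1 library (edgeR adjusted p 0.000548 to 0.00949). That of Dbp was lost without high-fat renin replicate 2 (edgeR adjusted p = 0.0518), high-fat renin replicate 5 (0.0541) or chow null replicate 4 (0.0726), and with the libraries of the compared groups alone (0.0736). For Tef the call was lost without any one of high-fat renin replicates 1, 2 and 5 and chow null replicates 1, 2 and 4 (edgeR adjusted p 0.0551 to 0.0796), and in 3 of 10 other settings. Hlf passed in 6 of 10 other settings, among them DESeq2 (adjusted p = 0.0156), and in 3 of 9 fits that left out a library: without high-fat renin replicate 3 (edgeR adjusted p = 0.0183) or 4 (0.013), or without chow null replicate 3 (0.0391). The summed cardiomyocyte markers given above were lower in high-fat renin than in chow null with no overlap, and their part in these differences was not tested. Dbp shares 737 bases with Sphk2 on the opposite strand, and whether the authors' counting used strand is not given in the sources used here. Sphk2 had on average 416 estimated reads a library and Dbp 2862.

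**Figure D2:**
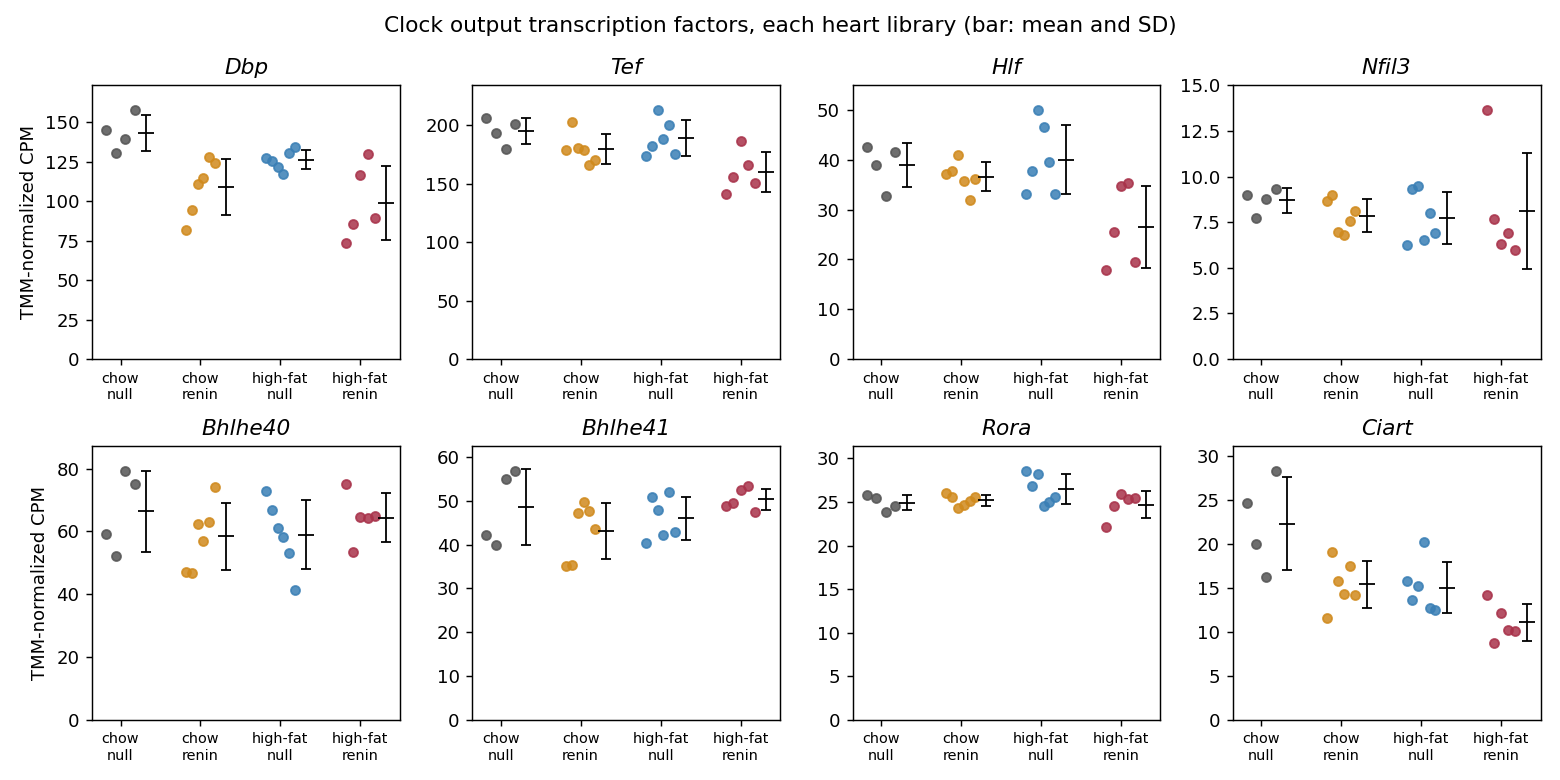
TMM-normalized CPM of the 8 members in each of the 21 heart libraries, by group, with mean and SD beside the points; each panel has its own axis from 0. All 5 high-fat renin libraries lie below all 4 chow null libraries for Ciart and Dbp, and the libraries of Rora lie between 22.1 and 28.6 CPM in every group.

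Renin on chow went with lower Dbp and Ciart. Dbp had 81.5, 94.4, 111, 115, 128 and 124 CPM in the 6 chow renin libraries, all below the 4 chow null libraries, and fell by 23.9% (log2 fold change -0.40, SE 0.13, edgeR adjusted p = 0.0469). Ciart had 11.6, 19.0, 15.8, 14.3, 17.5 and 14.2 CPM, with 4 of 6 libraries below chow null, and fell by 30.9% (log2 fold change -0.53, SE 0.16, edgeR adjusted p = 0.0323). The other D-box activators did not pass: the log2 value was -0.12 for Tef (edgeR adjusted p = 0.356, SE 0.07) and -0.09 for Hlf (edgeR adjusted p = 0.808, SE 0.16). So 2 of 8 members were lower, against 13.5% of all genes passing in either direction and 3.36% lower. The share lower was 1.13% to 2.14% without any one of chow null replicates 1 and 2 and chow renin replicates 1, 3 and 5, and 0.2% on the log2 TPM scale. Both calls rest on small margins. Dbp passed in 2 of the 10 fits without 1 library, those without chow renin replicate 5 or 6, and not without any of the other 8 (edgeR adjusted p 0.0594 to 0.145). Ciart failed without any one of chow renin replicates 1, 3, 4 and 6 and chow null replicates 1 and 4 (edgeR adjusted p 0.0586 to 0.162). In the 10 other settings the Dbp call held in 2 and the Ciart call in 4. Markers of neurons and glia were higher in chow renin than in any other group, and the summed cardiomyocyte markers were lower in chow renin than in chow null with no overlap (above). The part of either in this comparison was not tested.

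Diet alone changed no member past the threshold. Dbp had 128, 126, 122, 117, 131 and 134 CPM in the 6 high-fat null libraries, 5 of them below chow null, and its log2 value was -0.18 (edgeR adjusted p = 0.646, SE 0.13). Ciart had 15.8, 13.6, 15.2, 20.2, 12.7 and 12.5 CPM, with 5 of 6 libraries below chow null. Its log2 fold change was -0.57 (SE 0.16), about as large as that of renin on chow, with an unadjusted p = 0.00228 and an edgeR adjusted p = 0.193. The count of members called was 0 of 8 by edgeR and 0 by DESeq2, while 1 member, Ciart, had an unadjusted p under 0.05, as did 11.0% of all genes. Few genes passed at all in this comparison, 0.0657% of those tested by edgeR (10 genes) and 0.848% by DESeq2. By edgeR 57 genes passed without high-fat null replicate 4, and 0 to 3 genes without any one of the other 9 libraries.

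On the high-fat diet, renin went with lower Hlf and Tef. Hlf measured 33.2, 37.7, 50.03, 46.6, 39.5 and 33.1 CPM in high-fat null. With renin, 3 of 5 libraries (replicates 1, 2 and 5) lay below all of these and the other two within their range. Hlf fell by 33.5% (log2 fold change -0.59, SE 0.16, edgeR adjusted p = 0.0199). Tef measured 174, 182, 213.1, 189, 200.2 and 176 CPM in high-fat null, above 4 of 5 high-fat renin libraries, and fell by 15.4% (log2 fold change -0.24, SE 0.07, edgeR adjusted p = 0.0303). Dbp (log2 fold change -0.35, SE 0.12, edgeR adjusted p = 0.0717) and Ciart (-0.44, SE 0.16, edgeR adjusted p = 0.0742) did not pass, though 4 of 5 high-fat renin libraries were below high-fat null for each of them. Thus 2 of 8 members were lower, where 11.1% of genes passed in either direction and 5.08% were lower. Hlf was lost without high-fat renin replicate 1 (edgeR adjusted p = 0.0671), 2 (0.0521) or 5 (0.0646). Tef was lost without any one of high-fat renin replicates 1, 2 and 5 and high-fat null replicates 3 and 5 (edgeR adjusted p 0.0618 to 0.112). Dbp gained a call without high-fat renin replicate 3 (edgeR adjusted p = 0.0392) or 4 (0.00922). On the log2 TPM scale the Tef difference shrank to -0.07 (limma adjusted p = 0.618) and that of Hlf to -0.39 (limma adjusted p = 0.0653). DESeq2 called 4 members lower, Dbp (adjusted p = 0.0359) and Ciart (adjusted p = 0.0388) besides Hlf and Tef, where 15.2% of all genes passed by DESeq2 and 7.61% were lower. Without any one of high-fat renin replicates 1, 2 and 5, 4.58% to 6.15% of all genes passed by edgeR. The summed cardiomyocyte markers were at a median of 51200 CPM in high-fat null and 42469 CPM in high-fat renin. Those of the atrium (4 of 5 tested) summed to 31.0 to 768 CPM (median 80.5) and to 118 to 1005 CPM (median 697). The ranges of both lists overlapped between these groups, and their part in the differences was not tested.

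Diet under renin, high-fat renin against chow renin, showed lower Ciart and Hlf. Ciart fell by 28.2% (log2 fold change -0.48, SE 0.16, edgeR adjusted p = 0.0325), with 3 of 5 high-fat renin libraries below all 6 chow renin libraries. Hlf had 37.2, 37.7, 41.0, 35.7, 31.9 and 36.2 CPM in chow renin. It fell by 27.4% (log2 fold change -0.46, SE 0.16, edgeR adjusted p = 0.0369), with 3 of 5 high-fat renin libraries below chow renin. Dbp differed little (log2 fold change -0.14, SE 0.12, edgeR adjusted p = 0.481), and Tef did not pass (-0.17, SE 0.07, edgeR adjusted p = 0.0916). That makes 2 of 8 members lower, in a comparison in which 22.6% of all genes passed and 12.8% were lower. A count of 2 of 8 is near the share of all genes that passed. Ciart was lost without high-fat renin replicate 2, 4 or 5 or chow renin replicate 2 or 5 (edgeR adjusted p 0.0591 to 0.0954). Hlf was lost without high-fat renin replicate 1, 2 or 5 or chow renin replicate 1, 2, 3, 4 or 6 (edgeR adjusted p 0.0515 to 0.109), and Tef passed without high-fat renin replicate 3 (edgeR adjusted p = 0.0186). The neural markers were lower in high-fat renin than in chow renin. Summed fibroblast markers (4 of 4 tested) were at 320 to 496 CPM in chow renin and 453 to 663 CPM in high-fat renin, and the median of the cardiomyocyte markers was 46746 and 42469 CPM, with overlap in both. The part of these markers here was not tested.

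Whether renin acted differently on the 2 diets was asked with the interaction, the log2 fold change with renin on fat-rich food minus the one with renin on chow food. No member passed (0 of 8 by edgeR, 0 by DESeq2), where 10.4% of all genes did. Hlf alone had an unadjusted p under 0.05 (interaction -0.50 on the log2 scale, SE 0.23, unadjusted p = 0.0393, edgeR adjusted p = 0.188), where 23.0% of all genes did. For Ciart the interaction was 0.09 (SE 0.23, 95% interval -0.39 to 0.57, edgeR adjusted p = 0.872), and for Dbp 0.05 (SE 0.18, 95% interval -0.33 to 0.43, edgeR adjusted p = 0.922). These intervals are wide, and a renin effect that differs by diet within them could not be seen with 4 to 6 hearts a group.

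**Figure D3:**
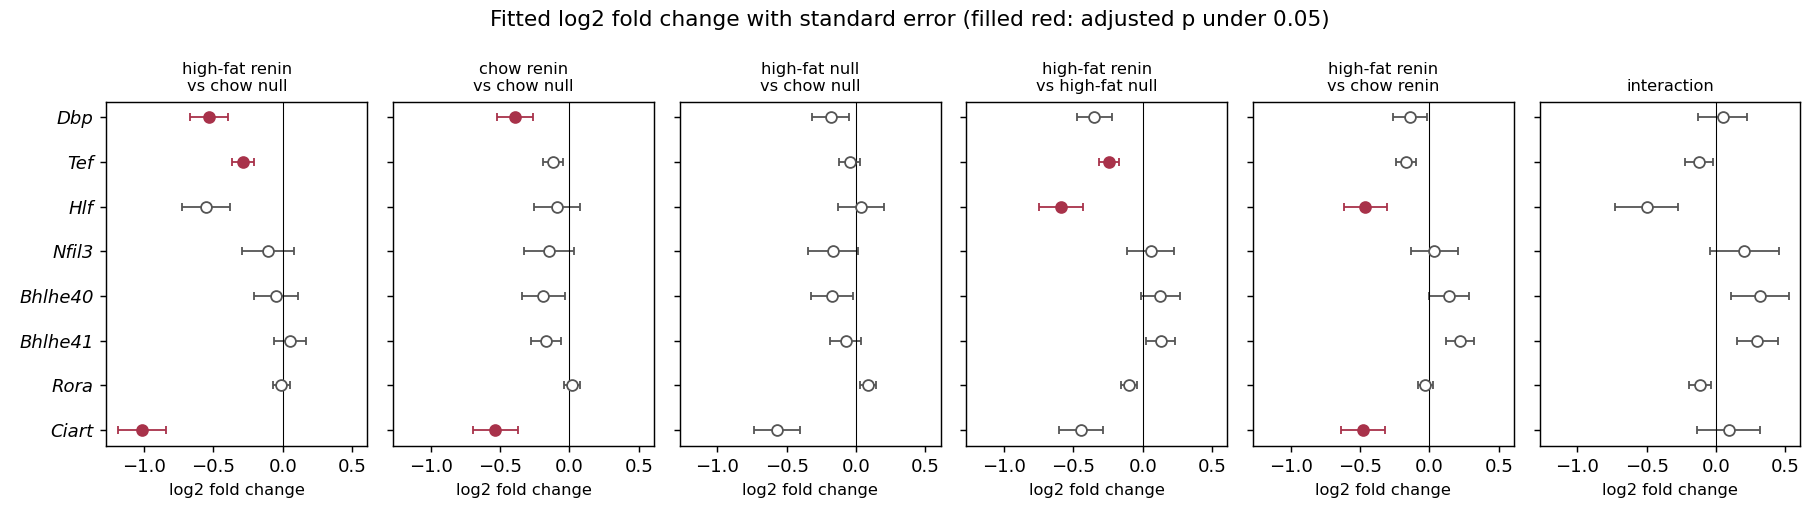
Fitted log2 fold change (point) with its standard error (bar) for each member in the 6 comparisons; filled red points passed at an edgeR adjusted p under 0.05 and open points did not. The 9 red points all lie to the left of 0 and belong to Dbp, Tef, Hlf and Ciart.

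Nfil3, Bhlhe40, Bhlhe41 and Rora did not pass in any of the 6 comparisons. Nfil3 ranged from 6.00 to 13.7 CPM over all libraries. The upper end was high-fat renin replicate 1, and the other 4 high-fat renin libraries had 6.00 to 7.65 CPM. With both hits the log2 fold change of Nfil3 was -0.11 (SE 0.19, edgeR adjusted p = 0.769), and without that library -0.39 (SE 0.14, edgeR adjusted p = 0.103). Bhlhe40 had 52.2 to 79.4 CPM in chow null and 53.3 to 75.1 in high-fat renin, and its log2 fold change with both hits was -0.05 (95% interval -0.38 to 0.29, edgeR adjusted p = 0.892). Bhlhe41 had 39.9 to 56.9 CPM in chow null, 35.2 to 49.8 in chow renin, 40.3 to 52.1 in high-fat null and 47.6 to 53.4 in high-fat renin. Its value with both hits was 0.05 (95% interval -0.19 to 0.29, edgeR adjusted p = 0.819), and its lowest unadjusted p, 0.0404, was for diet under renin (log2 fold change 0.22, SE 0.10, edgeR adjusted p = 0.127). Rora, the ROR activator, lay between 22.1 and 28.6 CPM in all 21 libraries. Its 95% interval with both hits was -0.14 to 0.12 on the log2 scale (edgeR adjusted p = 0.933), the narrowest of the 8 members.

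Arntl, of the core clock, was higher in each comparison of a renin group with its own diet's null group. It encodes BMAL1 and had 1.59, 1.67, 2.02 and 2.04 CPM in chow null, 2.81 to 3.88 in chow renin, 2.48 to 2.88 in high-fat null and 7.63, 2.94, 3.12, 3.10 and 3.98 in high-fat renin. Every library of the other 3 groups was above all 4 of chow null. Arntl rose with both hits (log2 fold change 1.17, SE 0.23, edgeR adjusted p = 0.00281), with renin on chow (0.90, SE 0.22, edgeR adjusted p = 0.0058) and with renin on the high-fat diet (0.62, SE 0.19, edgeR adjusted p = 0.037). The last of these calls was lost without high-fat renin replicate 1 (0.29, SE 0.13, edgeR adjusted p = 0.222). With diet alone Arntl did not pass (0.55, SE 0.22, edgeR adjusted p = 0.372). Per2, a repressor of the core loop, had a log2 value of -0.13 with both hits (edgeR adjusted p = 0.617, SE 0.14). Nr1d1, which encodes the Arntl repressor REV-ERB alpha, had one of -0.12 (edgeR adjusted p = 0.763, SE 0.21).

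A core clock score was set as the mean log2 CPM of Arntl, Clock and Npas2 minus that of Per1, Per2, Per3, Nr1d1 and Nr1d2, so it holds no member. It ran from -4.19 to -3.82 in chow null, from -3.92 to -3.52 in high-fat null, from -3.49 to -3.21 in chow renin and from -3.50 to -2.52 in high-fat renin. The groups with renin thus lay higher than chow null without overlap, and 74.0% of the variance of the score lay between groups. The neural markers were higher in chow renin (above), and their part in the score, which includes Npas2, was not tested. With the score as a covariate, 0 members and 0 genes in all were called with both hits against neither. In that fit Dbp had a log2 fold change of -0.07 (edgeR adjusted p = 0.969), Tef of -0.05 (0.96), Hlf of 0.16 (0.929) and Ciart of -1.08 (0.607). For renin on chow, Dbp then had -0.00 (edgeR adjusted p = 0.995) and Ciart -0.59 (0.235), and the one member called was Nfil3, lower (-0.79, edgeR adjusted p = 0.0236), where 8.16% of all genes passed. For renin on the high-fat diet 0 members and 0 genes in all passed, with Hlf at -0.15 and Tef at -0.09. For diet under renin Hlf alone passed (-0.36, edgeR adjusted p = 0.0487), and Ciart had -0.49 (0.0542), where 17.9% of all genes passed. The interaction of Hlf passed with the covariate (-0.68, edgeR adjusted p = 0.0148), as did 14.1% of all genes, so that 1 of 8 members is near the share over all genes. Because the score differs by group, a difference in clock state and the treatment cannot be told apart in this fit.

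**Figure D4:**
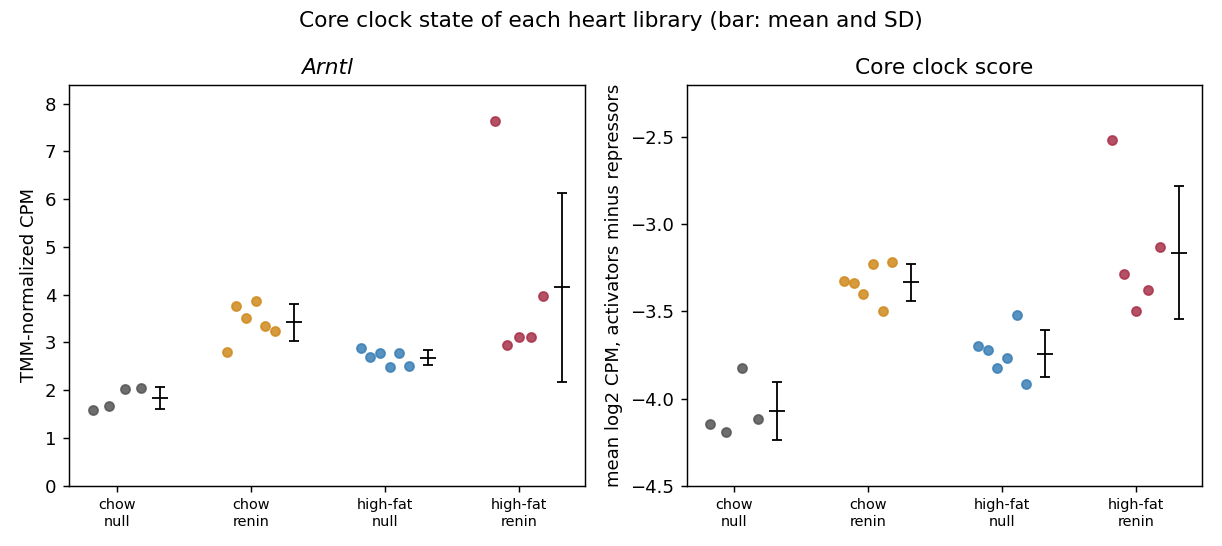
Left, CPM of Arntl in each library by group, and right, the core clock score in log2 units (activators minus repressors, no member included; this axis does not start at 0); bars give mean and SD. All chow null libraries have less Arntl than any other library, and high-fat renin replicate 1 stands highest in both panels.

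High-fat renin replicate 1 stood apart in clock genes. Of all 21 libraries it had the highest Arntl (7.63 CPM, the next library 3.98), core clock score (-2.52, the next -3.13) and Nfil3. Its CPM of Dbp, Tef, Hlf and Rora was the lowest of the 21. In TPM only its Dbp was lowest. Its Tef (46.3 TPM), Hlf (4.30) and Rora (2.80) were above the lowest libraries (39.0, 3.24 and 2.18). Without it, Ciart remained lower with both hits (log2 fold change -1.13, SE 0.18, edgeR adjusted p = 0.00198), as did Dbp (-0.45, SE 0.13, edgeR adjusted p = 0.0488), where 4.37% of all genes passed. Tef had -0.26 (SE 0.08, edgeR adjusted p = 0.0692) and Hlf -0.45 (SE 0.16, edgeR adjusted p = 0.117), so neither passed. For renin on the high-fat diet no member passed without this library, and the share of all genes called was 4.58%, beside 11.1% with it. For diet under renin Ciart alone passed without it (-0.60, SE 0.17, edgeR adjusted p = 0.0149). There 16.3% of all genes passed, so that 1 of 8 members is near the share over all genes. Arntl was higher than in chow null (0.83, SE 0.15, edgeR adjusted p = 0.00407), while its call for renin on the high-fat diet was lost (above).

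Within groups, Tef and Hlf rose and fell together from heart to heart. After the group means were removed, Pearson's r between their log2 CPM was 0.81 (Spearman's rho 0.87, n = 21, permutation p = 9e-05, adjusted p = 0.00324 over 36 relations). Leaving out the 2 libraries farthest from the median of Tef gave r = 0.78. The pair of Dbp and Bhlhe41 had r = 0.55 (rho 0.57, n = 21, permutation p = 0.00229, adjusted p = 0.0412), and 0.49 without the 2 farthest libraries, while its rho did not pass (adjusted p = 0.0947). The other 34 relations, which were the remaining pairs of members and each member with Arntl, did not pass. Among them, Dbp had r = 0.21 with Tef and 0.44 with Hlf, and Hlf had r = -0.59 with Arntl (permutation p = 0.0437, adjusted p = 0.318).

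**Figure D5:**
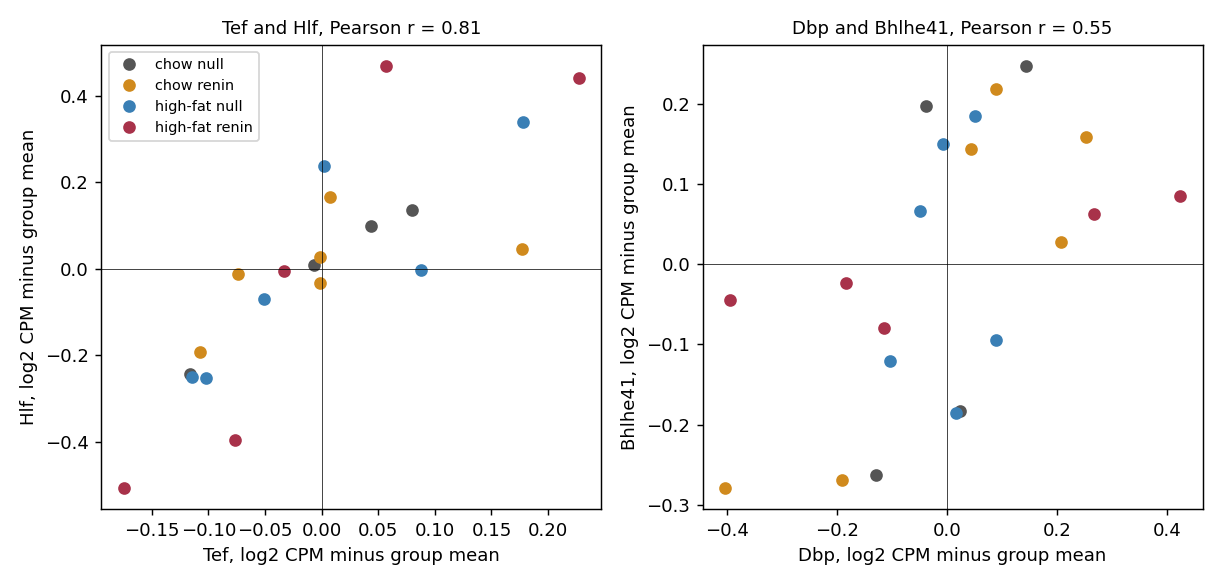
Deviation of log2 CPM from the group mean in each of 21 libraries, coloured by group, for Tef against Hlf (left, r = 0.81) and Dbp against Bhlhe41 (right, r = 0.55). On the left, the points run from lower left to upper right, with high-fat renin libraries at both ends.

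Each member was mostly made as 1 or a few transcripts. Nfil3 had a single transcript at all its level, Bhlhe40-201 held 93.0% and Hlf-201 held 87.1% of the TPM of its gene. Dbp-201 held 77.5%, Bhlhe41-201 82.0%, Rora-201 62.7%, Ciart-201 53.0% and Tef-201 51.4%. Tef-201 begins at the second of the Tef start sites shown above, and Tef-202, which in GENCODE begins upstream of the first, held 19.0%. Shifts in the share of the leading transcript were tested for the 5 members with at least 2 transcripts of 10% or more, in 5 comparisons each. None of the 25 exact permutation tests (two-sided) passed after adjustment. The smallest p these tests allow is 0.00216 to 0.00794, so over 25 tests a shift in 1 of them alone could not pass, however large. The lowest was for Bhlhe41-201, at 85.3% ± 1.59 (SD, n = 4) in chow null and 78.8% ± 3.08 (n = 5) in high-fat renin (exact permutation p = 0.0159, adjusted p = 0.238; the smallest p these group sizes allow is 0.00794).

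Genes that share the pathway moved in part. In the activator limb of the clock (Arntl, Clock, Npas2), 1 of 3 genes was higher and 0 lower with both hits, and 2 of 3 were higher with renin on chow, where Npas2, a partner of BMAL1, joined Arntl (log2 fold change 0.61, SE 0.19, edgeR adjusted p = 0.037). Over all genes, 8.29% passed with both hits and 13.5% with renin on chow. The neural markers were higher in the same chow renin libraries (above), and their part in the Npas2 difference was not tested. In the repressor limb (Per1, Per2, Per3, Cry1, Cry2, Nr1d1, Nr1d2), 2 of 7 were lower and 0 higher with both hits, where 4.25% of all genes were lower. Per1 fell by 0.74 on the log2 scale (edgeR adjusted p = 0.0262, SE 0.20) and Cry2 fell by 0.44 (edgeR adjusted p = 0.00332, SE 0.09). Of 4 kinases and ligase parts that tune the clock, Csnk1e was lower with both hits (-0.34, SE 0.07, edgeR adjusted p = 0.00616). Cry2 and Csnk1e were also lower with renin on the high-fat diet (5.08% of all genes lower), and Cry2 and Per1 with diet under renin (12.8% of all genes lower). The median log2 fold change with both hits was 0.51 over the activator limb and -0.17 over the repressor limb, beside 0.01 over all genes tested.

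Among 23 genes known as rhythmic outputs of the clock in peripheral tissue, 6 were lower and 1 higher with both hits. The lower ones were Usp2, a deubiquitinase (log2 fold change -0.46, SE 0.08, edgeR adjusted p = 0.00217), Kcnip2 and Kcnd2, subunits of the channel that carries the transient outward potassium current (-0.91, edgeR adjusted p = 0.00584, and -0.90, edgeR adjusted p = 0.00939), Coq10b (-0.48), Tspan4 (-0.36) and the transcription factor Klf9 (-0.32). Ppp1r3c, which directs a phosphatase to glycogen, was higher (1.14, SE 0.30, edgeR adjusted p = 0.027). Renin on chow gave 2 lower (Usp2, Coq10b) and 0 higher of 23, diet alone 0, renin on the high-fat diet 5 lower and diet under renin 5 lower and 1 higher. The shares of all genes given above for these comparisons (8.29% with both hits, 13.5%, 0.0657%, 11.1% and 22.6%) are the background of these counts, and 6 of 23 with diet under renin is near it. The list was chosen with earlier results of these data known. The list median with both hits was -0.16. Among 12 stimulus-responsive genes, Nr4a1 was lower with both hits (-1.59, SE 0.47, edgeR adjusted p = 0.0447), and 1 of 12 is near the 8.29% of all genes. Il6, Ptgs2 and Slc2a1 were higher with renin on chow and lower with diet under renin, and Il6 and Ptgs2 passed in the interaction, with a negative value. Of all genes, 13.5%, 22.6% and 10.4% passed in these comparisons, and 3 of 12 with diet under renin is near that share. The neural markers were higher in the same chow renin libraries (above), and their part in these differences was not tested.

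The genes whose log2 CPM followed each member most closely over the 21 libraries were listed by Pearson's r, as a description in which all points share library, depth and group. Tef was followed by Cry2 (r = 0.89), Wnk2 (0.88) and Ezr (0.87), and Hlf by Selenbp1 (0.91), Aldh2 (0.91) and Adhfe1 (0.90). Dbp was followed by Tmem94, Orai3 and Trpm4 (all 0.87) and Ciart by Lrrc4b (0.85), Tfpi (0.84) and Slc2a4, the insulin-responsive glucose transporter (0.83). The others had lower values. Bhlhe41 went with Unc5b (0.81), Nfil3 with Cpsf2 (0.74), Bhlhe40 with Ptpn14 (0.74) and Rora with Sppl3 (0.74).

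The authors' deposited table gives a comparison of its own, whose reference group is not stated. In the authors' deposited table, 4 of the 8 members had an adjusted p under 0.05, all with a negative log2 fold change: Ciart (-0.90, adjusted p = 3.96e-05), Dbp (-0.38, adjusted p = 0.00839), Hlf (-0.37, adjusted p = 0.0118) and Tef (-0.22, adjusted p = 0.0144). The other members of the authors' deposited table lay between -0.05 (Rora) and 0.08 (Bhlhe41), with adjusted p of 0.506 or more.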

How the data were processed

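RNA of 21 hearts was measured by sequencing. Per the submitters' processing notes, the tools named are Salmon 1.10.2 and DESeq2 1.40.2, with the build GRCm38 (mm10). Per the file headers and values, the deposited transcript tables give estimated counts that need not be whole, TPM and an effective length per transcript. A further deposited gene table gives a normalized signal per library, and a log2 fold change with its adjusted p-value from a comparison made by the authors. Each of its 21 columns was matched by name and was closest in TPM to its own library.

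Estimated counts of the 98.0% of transcripts matched to GENCODE M21 were summed to genes and rounded. Unmatched transcripts held 0.854% to 0.925% of reads. Of 23855 genes with reads, 15216 passed filterByExpr (99.96% of reads). The test is the quasi-likelihood F test of edgeR 4.0.16 (R 4.3.3, TMM factors 0.886 to 1.09, robust glmQLFit, a term per group over all 21 libraries), with Benjamini-Hochberg adjustment over all genes tested and calls at an adjusted p under 0.05. The tests had been laid out for whole or estimated reads, and estimated reads were used. SE is the absolute log2 fold change over the square root of F, and 95% intervals use it with 17 residual degrees of freedom. At these depths every member had at least 139 reads a library. Within groups, counts of libraries differed by more than sampling noise (chi-square per degree of freedom at least 3.61), and each was counted as 1 replicate. Correlations used 100000 permutations within groups.

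Alternatives were DESeq2 1.42.0, upper-quartile factors, no filter, the compared groups alone, length-scaled TPM, limma 3.58.1 on log2(signal + 1) and on log2(TPM + 0.1) with a mean TPM of at least 0.5, the core clock score as a covariate, the replicate number as a block, each library left out and, added after seeing the data, libraries thinned to the smallest total. All members are named, with Arntl, Per2 and Nr1d1, list genes that were called, and the 3 genes of at least 5 CPM most like each member. The members and lists were chosen with earlier results of these data known.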

Additional observations from a re-analysis of the deposited data

Results flagged for a closer look

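Nfil3 in the high-fat renin group had 1 heart far above the others. Replicate 1 measured 13.7 CPM and the next highest 7.65 CPM, a gap of 0.784 of the range of the 5 libraries. In all, 32 groups of values (8 members in 4 groups) were looked at, and chance marks about 1 in 20 such groups. The same library had the highest Arntl level and core clock score of the 21 libraries.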

How the results depend on the processing

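The number of members called shifted with the setting, always among lower Dbp, Tef, Hlf and Ciart unless named here. With both hits against neither it was 3, then 4 (Hlf added) with DESeq2, the authors' signal, length-scaled TPM, thinned libraries or the replicate block, 1 with the compared groups alone and 0 with the core clock score as a covariate. The share of all genes called was 8.29% in the main analysis and 10.6%, 3.99%, 5.53%, 8.2%, 8.71%, 5.63% and 0% in these settings in turn. For renin on chow the count of members was 2, then 1 with the covariate (Nfil3), the compared groups alone, length-scaled TPM, upper-quartile factors or the replicate block, and 0 with the authors' signal, log2 TPM, no filter or thinned libraries. The share of all genes was 13.5%, then 8.16%, 16.8%, 9.94%, 12.4%, 14.8%, 8.84%, 6.77%, 7.5% and 12.7% in the same order. For renin on the high-fat diet the count of members was 2, then 4 with DESeq2, 1 with the authors' signal or length-scaled TPM, and 0 with the covariate, log2 TPM or the compared groups alone. The share of all genes was 11.1%, then 15.2%, 4.61%, 7.04%, 0%, 13.4% and 3.81% in the same order. For diet under renin the count of members was 2, then 3 (Tef added) with log2 TPM or upper-quartile factors, 1 with the authors' signal, the covariate, length-scaled TPM or the compared groups alone, and 0 with no filter. The share of all genes was 22.6%, then 12.3%, 20.3%, 13.7%, 17.9%, 16.4%, 24.8% and 12.6% in the same order. The interaction went from 0 to 1 member with the covariate (Hlf), and from 10.4% to 14.1% of all genes. With 1 library left out, the counts of members ranged from 1 to 4 with both hits, 0 to 2 for renin on chow, 0 to 3 for renin on the high-fat diet and 0 to 3 for diet under renin, and stayed at 0 for diet alone and the interaction. The shares of all genes then ranged from 3.67% to 11.4%, 9.83% to 14.8%, 4.58% to 15.8%, 16.3% to 24.2%, 0% to 0.375% and 7.98% to 12.9% in the same order. The cause of these shifts was not tested, and in the covariate fit clock state and treatment cannot be told apart (above). Of 36 correlations, 2 passed, 1 with the authors' signal and 1 to 2 with a library left out. Transcript shares gave 0 calls throughout, in tests in which 1 shift alone could not pass (above).

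Of 1048 member values under alternatives, 905 kept sign and call, 78 lost and 18 gained the call, and 47 changed sign. All 47 belong to values not called in the main analysis, and 0 passed in the alternative. With the covariate the sign changed for Bhlhe40 (renin on the high-fat diet, -0.12), Bhlhe41 (both hits, -0.0035), Dbp (interaction, -0.055), Hlf (both hits, 0.16; renin on chow, 0.52), Nfil3 (renin on the high-fat diet, -0.50; diet under renin, -0.16), Rora (renin on the high-fat diet, 0.012; diet under renin, 0.0016; both hits, 0.16) and Tef (diet alone, 0.042; renin on chow, 0.076). Elsewhere it changed for Hlf in diet alone (authors' signal, -0.014; length-scaled TPM, -0.016; log2 TPM, -0.14) and renin on chow (log2 TPM, 0.056), for Nfil3 in diet under renin (authors' signal, -0.016; log2 TPM, -0.12; upper-quartile factors, -0.023), for Rora in diet alone (log2 TPM, -0.034) and renin on chow (authors' signal, -0.049; length-scaled TPM, -0.063), and in the interaction for Dbp (upper-quartile factors, -0.0005) and Ciart (replicate block, -0.015). With 1 library left out, values crossed 0 for Bhlhe40 (both hits, -0.15 to 0.051), Bhlhe41 (both hits, -0.036 to 0.14), Bhlhe41 (diet alone, -0.16 to 0.011), Ciart (interaction, -0.046 to 0.22), Dbp (interaction, -0.07 to 0.12), Hlf (diet alone, -0.0404 to 0.087), Nfil3 (renin on the high-fat diet, -0.21 to 0.15), Nfil3 (diet under renin, -0.25 to 0.13), Nfil3 (interaction, -0.081 to 0.29), Rora (both hits, -0.031 to 0.014) and Rora (renin on chow, -0.0027 to 0.041).

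The replicate numbers showed no clear pairing of the samples, and pairing was not tested. Deviations of same-numbered libraries correlated at 0.09 on average (28 pairs, -0.23 to 0.42) and others at -0.02 (136 pairs, -0.26 to 0.40). With the replicate block 9 member values were called, as without it. Ciart for renin on chow lost its call (adjusted p = 0.113), and Hlf with both hits gained one (adjusted p = 0.0405). Every member had at least 139 reads a library, and thinning all libraries to the smallest total left both values for renin on chow close to those given (Ciart -0.52, Dbp -0.38) but outside the threshold (adjusted p = 0.0539 and 0.066).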
